A study of Mus musculus with 61 samples.

Results

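The 9 protein-coding genes of the mouse HoxC cluster (Hoxc4, Hoxc5, Hoxc6, Hoxc8, Hoxc9, Hoxc10, Hoxc11, Hoxc12 and Hoxc13) were followed in 61 RNA-seq libraries of stembryos, by matching their symbols among the 55052 genes of the deposited tables. Stembryos, or gastruloids, are aggregates of mouse embryonic stem (mES) cells that elongate in culture after a pulse of a Wnt agonist (Chiron) between 48 h and 72 h. The wild-type time course had 2 libraries at each of 8 stages from 72 h to 168 h, and the wild-type controls outside it comprised 4 libraries from 96 h stembryos, 4 from 120 h and 2 from 144 h. The remaining 35 libraries came from 8 genotypes, all altered on both copies of the HoxD region of chromosome 2 and compared here with the controls of the same stage. In Del(CBS1), Del(CBS2) and Del(CBS4) a CTCF-binding site (CBS) was deleted, in Del(CBS1-2) CBS2 was removed from Del(CBS1) cells, and in Del(CBS1-5) sites CBS1 to CBS5 were missing. In Ins(2xCBS-d4d8) a cassette with 2 CTCF sites was inserted between Hoxd4 and Hoxd8, Del(d1-d4) lacked Hoxd1 to Hoxd4, and Del(sub-TAD1) lacked a regulatory domain beside the cluster and carried a transgene that restored Mtx2. Mutants had 2 libraries per stage, except Del(sub-TAD1) at 96 h, which had 3. Most genotypes were sampled at 96 h and 120 h. Del(CBS4) was sampled at 120 h and 144 h, and Del(CBS1-5) at all 3 control stages. Cells carrying Del(CBS1-5) or Del(sub-TAD1) were derived from blastocysts of mutant mice on another genetic background, so that the allele and the origin of the line cannot be told apart. The other lines were edited clones of the control mES cells. Each library pooled many stembryos, and from 108 h on only elongating stembryos were taken, so that fewer cells expressing a gene and less RNA per cell cannot be told apart.

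Hox genes encode homeodomain transcription factors that give cells their position along the head-to-tail axis. In the mammalian clusters the genes at the 3′ end, such as Hoxc4, are switched on first and mark anterior levels, and those at the 5′ end, such as Hoxc13, come last and mark posterior levels. Hoxc4, Hoxc5 and Hoxc6 belong to the groups used at neck and upper thoracic levels, Hoxc8 and Hoxc9 to those of the thorax, Hoxc10 and Hoxc11 to those of the lumbar and sacral region, and Hoxc12 and Hoxc13 to the most posterior groups. None of the designed edits touched a Hoxc gene: the HoxC cluster lies on another chromosome than every edited site, and the authors used Hoxc genes in scaling, together with Hoxa genes for Hoxd and with Hoxb genes for Hoxa. The question here is how the cluster behaved in its own right along the time course, and whether it stayed level between mutants and controls.

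The cluster occupied chr15:102921103-103036852 (mm10, plus strand), a span of 115.75 kb. In the order of the coordinates the genes were Hoxc13 (102921103 to 102928814), Hoxc12 (102936757 to 102938609), Hoxc11 (102954427 to 102957708), Hoxc10 (102966796 to 102971893), Hoxc9 (102976439 to 102985099), Hoxc8 (102990607 to 102993821), Hoxc6 (103009573 to 103011881), Hoxc5 (103013815 to 103017429) and Hoxc4 (103018934 to 103036852). No member overlapped another in the authors' annotation, and the widest gaps were 15818 bp between Hoxc12 and Hoxc11 and 15752 bp between Hoxc8 and Hoxc6. GENCODE vM21 has longer models of Hoxc5, Hoxc6 and Hoxc8 than the tables, and its Hoxc5 model starts inside Hoxc10, so that the FPKM of these genes depends on the annotation. The identifiers at the ends of the cluster were ENSMUSG00000075394 for Hoxc4 and ENSMUSG00000001655 for Hoxc13.

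The members share the homeobox, the exon segment that encodes the DNA-binding homeodomain, which raises the question whether reads of 75 bases can be assigned to a single gene. The GENCODE vM21 transcripts of the members were compared for this. Over the whole homeodomain the amino acid identity had a median of 79.2% (65% to 85%) among the 6 pairs of Hoxc4 to Hoxc8 and of 60.8% (53.3% to 81.7%) among the 10 pairs of Hoxc9 to Hoxc13. It was 54.2% (43.3% to 73.3%) between the groups. The longest identical run of homeobox bases in any of the 36 pairs was 20 bases, shorter than a read. Of all stretches of 75 bases in the members' transcripts, only 7 of 2353 in Hoxc9 (0.297%) recurred in a gene other than the members, the predicted gene Gm29455. Stretches of 75 bases shared between members were not counted. Between members the question is therefore answered for the homeobox only.

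Between Hoxc10 and Hoxc9 lies Mir196a-2, the gene of a microRNA of a family known to repress Hox8 paralogues (mature form at chr15:102973365-102973386, plus strand, GRCm38.p6, sequence from RefSeq). It is shown with its seed, bases 2 to 8, in capitals, and below it the windows of the Hoxc8 transcript that hold the complement of the seed, ACTACCT, in capitals.
mmu-miR-196a-5p: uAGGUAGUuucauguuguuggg
Hoxc8, 135 bases after the stop codon: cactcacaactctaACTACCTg
Hoxc8, 892 bases after the stop codon: taaatctttaacatACTACCTa
Hoxc8 held 2 matches, both after its stop codon, and the other 8 members held 0. Of 58797 protein-coding transcripts, 12.3% held at least 1 match, so that a match by itself is a description of the letters. The mature microRNA cannot be read from poly-A libraries, and Mir196a-2 was listed at 0 in all 61. Of the other genes annotated inside the cluster, the antisense transcript Hotair reached at most 0.339 FPKM and was above 0 in 18 of 61 libraries.

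Levels are given in FPKM, the fragments of a gene divided by its transcript length and by the mapped fragments of the library. The tables give no depth, which was estimated, from the steps that 1 fragment makes in low values, as 14.4 M to 37.3 M (mega) fragments per library, at which 3 fragments are worth 0.0443 to 0.115 FPKM for Hoxc10 and 0.0415 to 0.108 FPKM for Hoxc11. By their total FPKM the libraries fell into 2 sets, 28 with totals of 605292 to 657499 and 16.5% to 19.0% of it on pseudogenes, and 33 with totals of 461798 to 551760 and 1.2% to 1.87% on pseudogenes. The second set held the time course, wild-type replicate 4 at 96 h and 120 h, every 144 h library, Del(CBS4), Ins(2xCBS-d4d8) and Del(sub-TAD1) at 96 h, and the first set held the rest. Two-sided tests were made with limma on log2(FPKM + 0.1) over 17098 genes, with Benjamini-Hochberg adjustment over all of them. Fold values on this scale understate the change of low genes. Hoxc12 and Hoxc13 never reached a group mean of 1 FPKM and were not tested, which left 7 members. In Del(d1-d4), Hoxd1, Hoxd3 and Hoxd4 were listed at 0 in all 4 libraries, against wild-type means of 11.2, 29.3 and 29.5 FPKM at 96 h and 5.21, 17.3 and 27.0 FPKM at 120 h. The 5 presomitic mesoderm genes summed to 514 to 673 FPKM in the controls at 96 h, and the 6 somite genes to 449 to 510 FPKM at 120 h.

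In 2 time-course libraries the Hoxc levels stood apart from those of their partner, replicate 2 at 96 h and replicate 1 at 120 h. At 96 h, Hoxc8 was 25.2 FPKM in replicate 1 and 0.571 FPKM in replicate 2. For the 120 h stage, Hoxc10 was 1.81 FPKM in replicate 1 and 25.2 FPKM in replicate 2. The transcriptome of the 96 h library resembled an age of 92.0 h and that of the 120 h library an age of 125.5 h, when each was placed on the time course by genes outside the Hox clusters. Time-course libraries placed in this way lay between -8 h and 7.5 h from their label, so that ages closer than this cannot be told apart. As all groups share 1 estimate of the spread per gene, the 2 libraries that stand apart widen the standard errors of the Hoxc genes in every comparison. Where leaving them out changed the members called, the count is given also without them, an alternative chosen after the data were seen.

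The Hoxc genes came on from the 3′ end of the cluster to the 5′ end. With onset set at the earliest stage where 1 FPKM was reached in both libraries, Hoxc4 and Hoxc5 had their onset at 84 h, Hoxc6, Hoxc8, Hoxc9 and Hoxc10 at 108 h and Hoxc11 at 144 h. Hoxc12 and Hoxc13 had none by 168 h. The order of onset and the order along the chromosome had a Spearman correlation of 0.90 over the 7 genes with an onset and 0.95 over all 9 with Hoxc12 and Hoxc13 placed last, as a description of points that share their libraries. Without the 2 libraries that stand apart, Hoxc6 and Hoxc8 had their onset at 96 h and the correlation over 7 genes was 0.97.

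**Figure D1:**
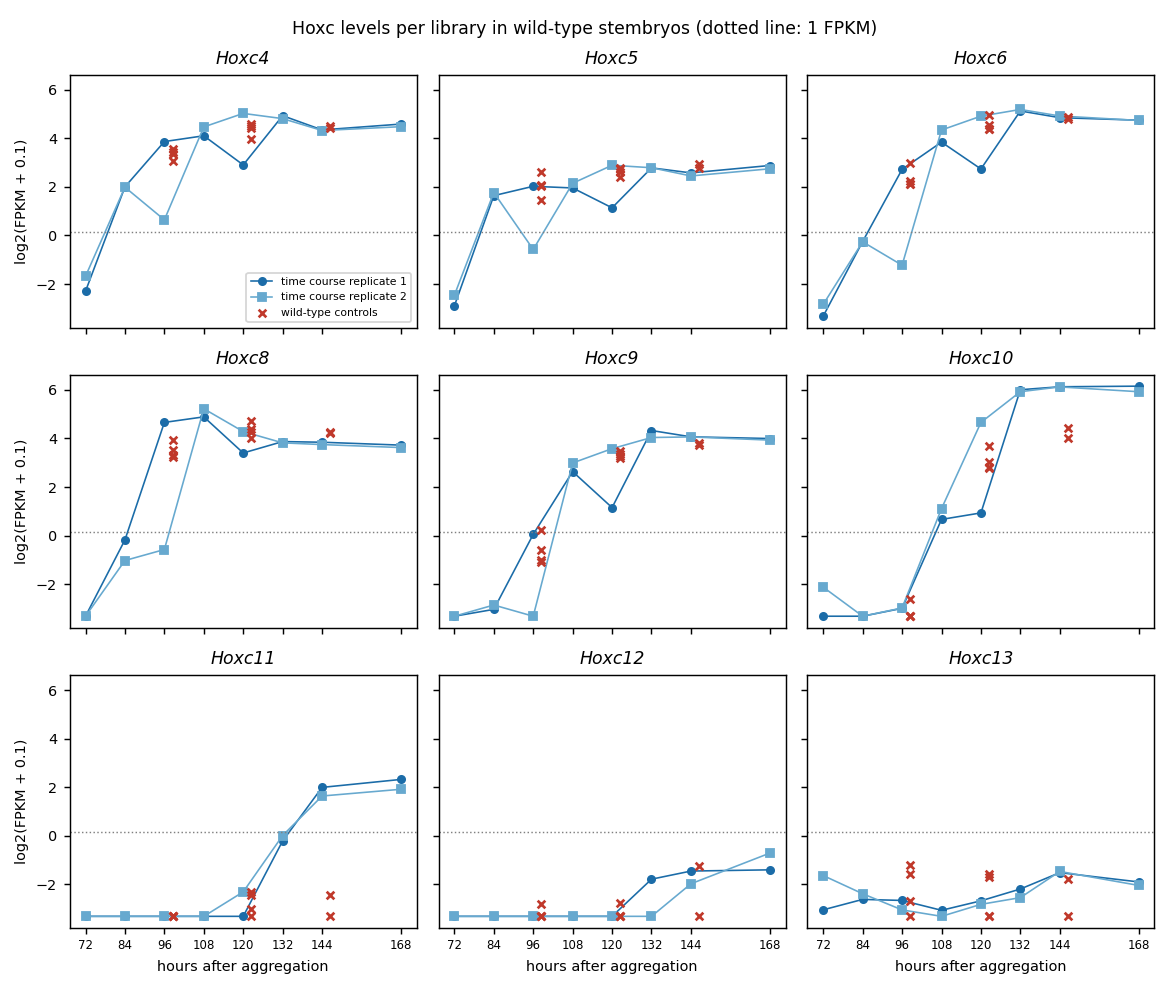
Log2(FPKM + 0.1) of the 9 Hoxc genes (1 panel each, shared vertical axis) against hours after aggregation; blue points joined by lines are the 2 replicates of the wild-type time course, red crosses are the wild-type controls, drawn slightly to the right of their stage, and the dotted line is 1 FPKM. Hoxc4 and Hoxc5 passed the dotted line at 84 h and Hoxc11 at 144 h, replicate 2 at 96 h and replicate 1 at 120 h lie under their partners in Hoxc4 to Hoxc9, and Hoxc8 came down after its highest stage mean of 33.4 FPKM at 108 h.

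At the anterior end, Hoxc4 stood at 0.104 and 0.212 FPKM at 72 h and at 3.90 and 3.87 FPKM at 84 h. It was 14.5 and 1.46 FPKM at 96 h, 17.1 and 22.1 FPKM at 108 h, 7.39 and 32.5 FPKM at 120 h, 30.5 and 28 FPKM at 132 h, 20.3 and 19.9 FPKM at 144 h and 24.0 and 22.2 FPKM at 168 h. The groups at 72 h and 84 h did not overlap, and from 108 h on the level lay between 17.1 and 32.5 FPKM, apart from replicate 1 at 120 h. Hoxc5, its neighbour, went from 0.0340 and 0.0815 FPKM at 72 h to 3.02 and 3.30 FPKM at 84 h and never passed 7.32 FPKM in the time course. Hoxc6, the 3′ neighbour of Hoxc8, stood at 0.741 and 0.734 FPKM at 84 h, 6.49 and 0.328 FPKM at 96 h, 14.3 and 20.2 FPKM at 108 h, 6.57 and 30.1 FPKM at 120 h and 34.9 and 36.4 FPKM at 132 h. It then stayed between 26.6 and 30.2 FPKM. Hoxc4 and Hoxc6 thus had their highest stage mean at 132 h (29.2 and 35.6 FPKM), and Hoxc5 at 168 h (6.94 FPKM). For Hoxc4 and Hoxc5, replicate 2 at 120 h lay above these means, at 32.5 and 7.32 FPKM, and replicate 1, which stands apart, lowered the 120 h mean.

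Among the thoracic genes, Hoxc8 was listed at 0 in both libraries at 72 h, which allows up to 0.1 FPKM. It was 0.784 and 0.391 FPKM at 84 h, at least 5.87-fold higher, and reached 29.6 and 37.3 FPKM at 108 h. From there its values were 10.5 and 19.4 FPKM at 120 h, 14.5 and 14.0 FPKM at 132 h, 14.3 and 13.3 FPKM at 144 h and 13.1 and 12.2 FPKM at 168 h. Hoxc8 was the member whose level came down furthest after its peak, to 38.0% of the 108 h mean at 168 h, although no step between neighbouring stages after 108 h passed the test. Hoxc9 was listed at 0 at 72 h, was 0.936 and 0 FPKM at 96 h, and 6.11 and 7.85 FPKM at 108 h, at least 68.0-fold higher than the limit at 72 h. It was highest at 132 h, with 20 and 16.3 FPKM, and ended at 15.9 and 15.2 FPKM.

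At the posterior end, Hoxc10 was at 0 and 0.129 FPKM at 72 h, the latter about 4 fragments. It was listed at 0 in both libraries at 84 h and was 0.0252 and 0.0266 FPKM at 96 h. At 108 h it was 1.49 and 2.06 FPKM, at least 21.6-fold above the limit at 84 h. It reached 64.3 and 60.7 FPKM at 132 h, 69.9 and 69.7 FPKM at 144 h and 71.2 and 60.7 FPKM at 168 h, the highest levels of any member. Hoxc11 was listed at 0 in every library to 108 h and at 0 and 0.101 FPKM at 120 h. It then stood at 0.761 and 0.904 FPKM at 132 h, 3.87 and 3.01 FPKM at 144 h, at least 47.5-fold above the limit at 108 h, and 4.89 and 3.66 FPKM at 168 h. The most posterior genes stayed near the detection limit: Hoxc12 reached 0.277 and 0.508 FPKM at 168 h, and the highest stage mean of Hoxc13 was 0.254 FPKM at 144 h. At 72 h Hoxc13 was 0.0205 and 0.220 FPKM, the latter about 9 fragments and the highest value of any member in that library.

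Step by step, the test called different parts of the cluster. From 72 h to 84 h, 4 of 7 members rose (Hoxc4 by 3.98, SE 0.51, adjusted p = 2.91e-07, Hoxc5 by 4.38, SE 0.44, adjusted p = 1.09e-09, and Hoxc6 and Hoxc8 by 2.82 and 2.72 on the log2 scale), while 16.3% of all genes were called. From 84 h to 96 h, Hoxc8 rose (log2 difference 2.65, SE 0.67, adjusted p = 0.00364, with 20.7% of all genes called). From 96 h to 108 h, 6 members rose, all but Hoxc11, among them Hoxc9 by 4.45 (adjusted p = 1.28e-06) and Hoxc10 by 3.88 on the log2 scale, against 9.45% of all genes. Thereafter only the 5′ genes were called. Hoxc10 rose from 108 h to 120 h (1.91, adjusted p = 0.0231, 7.06% of all genes called), Hoxc10 and Hoxc11 from 120 h to 132 h (3.17, adjusted p = 0.000589, and 2.71, adjusted p = 1.87e-08, with 2.46% called) and Hoxc11 from 132 h to 144 h (1.92, adjusted p = 8.41e-06, with 5.42% called). From 144 h to 168 h, limma called 0 members, none of them at an unadjusted p under 0.05 either, and 9.87% of all genes. No member was called lower at any step.

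Without the 2 libraries, the steps up to 96 h, 108 h, 120 h and 132 h held 4, 3, 2 and 1 members that rose, with 15.6%, 5.29%, 3.9% and 0.532% of all genes called. Hoxc4, Hoxc6, Hoxc8 and Hoxc9 then rose from 84 h to 96 h, by 1.87, 2.98, 5.26 and 3 on the log2 scale, and Hoxc6, Hoxc9 and Hoxc10 from 96 h to 108 h. Hoxc11 rose at the step to 120 h by 1.0 on the log2 scale, which rests on 0.101 FPKM, about 4 fragments, in the library left at 120 h. Hoxc10 no longer passed at the step to 132 h. Fewer libraries at 96 h and 120 h leave each of these steps on a stage with a single library, assumed to vary like the others.

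The make-up of the Hoxc signal shifted in the same direction. FPKM is per length, so that the members can be added. The sum over the 9 genes was 8.42 and 8.53 FPKM at 84 h and 159 and 160 FPKM at 144 h. Hoxc4 made up 45.8% to 45.9% of it at 84 h, Hoxc8 39.7% to 40.9% at 108 h, and Hoxc10 37.2% to 37.4% at 132 h and 43.7% to 43.9% at 144 h, after 2.05% to 2.19% at 108 h. Hoxc8 was down to 8.03% to 8.28% at 168 h. Each of these ranges spans the 2 libraries of a stage, and none overlaps the range of the other stage named for the same gene.

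**Figure D2:**
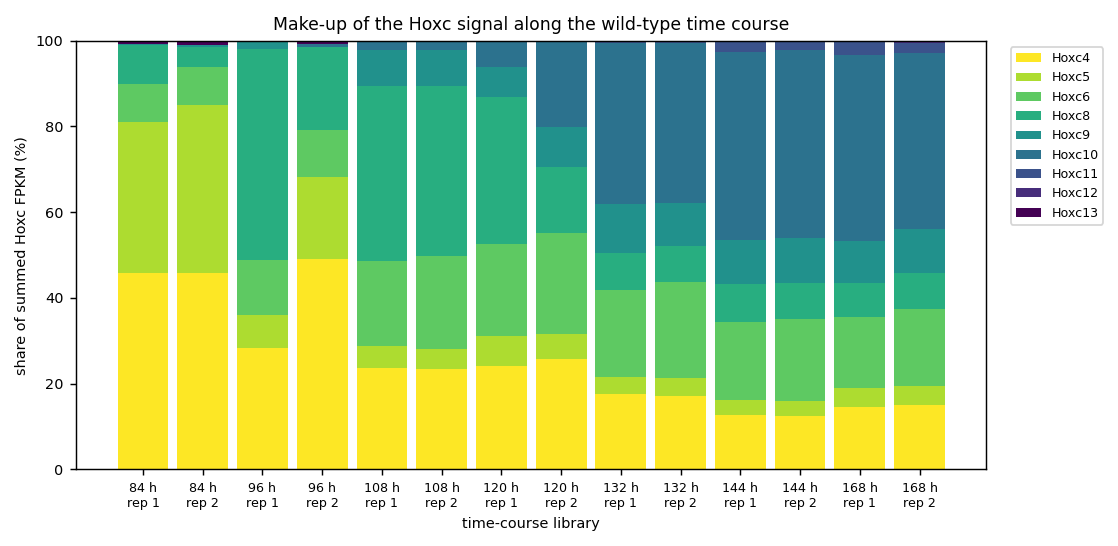
Share of each Hoxc gene (percent of the summed FPKM of the 9 members, stacked bars) in the 14 time-course libraries from 84 h to 168 h. Hoxc4 holds 45.8% to 45.9% at 84 h and Hoxc10 43.7% to 43.9% at 144 h, and replicate 2 at 96 h and replicate 1 at 120 h differ from their partners.

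The genes whose pattern was most like that of each member were looked up over the 28 group means of log2(FPKM + 0.1), which share libraries of the same stages. Hoxb7 was nearest to Hoxc4 (Pearson r = 0.977) and Hoxc5 (0.970), Hoxb9 to Hoxc8 (0.943), Hoxa9 to Hoxc9 (0.986), Hoxa10 to Hoxc10 (0.985) and Hoxd11 to Hoxc11 (0.972). For Hoxc6 the nearest gene was Gm53 (0.971), followed by Sema3a (0.965) and Gdf11 (0.959). Within the cluster, the correlation was 0.949 between Hoxc4 and Hoxc5 and 0.933 between Hoxc4 and Hoxc8, but 0.0820 between Hoxc8 and Hoxc11.

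The wild-type controls outside the time course gave a separate set of stembryos at 3 stages. Hoxc10 was listed at 0, 0, 0.0627 and 0 FPKM at 96 h and was 8.04, 6.72, 12.8 and 6.91 FPKM at 120 h, at least 109-fold higher than the limit of 3 fragments. At 144 h it was 15.9 and 21.4 FPKM. Hoxc9 was 0.365, 0.553, 1.06 and 0.394 FPKM at 96 h and 9.56, 10.1, 9.15 and 11.1 FPKM at 120 h. None of the 96 h and 120 h values of Hoxc9 or Hoxc10 overlapped. From 96 h to 120 h, limma called 5 members higher, where 27.1% of all genes were called: Hoxc4 by 1.03, Hoxc6 by 2.21, Hoxc9 by 3.96, Hoxc10 by 6.22 and Hoxc11 by 0.54 on the log2 scale. The values of Hoxc11 at 120 h were 0, 0.0221, 0.0842 and 0.0975 FPKM, close to the value of a few fragments. Without the 2 time-course libraries all 7 members were called higher, with 28.7% of all genes. From 120 h to 144 h, Hoxc10 rose by 1.14 (SE 0.46, adjusted p = 0.0492) among 38.2% of all genes, and by 0.828 to 1.35 under the alternatives. Of the controls at 120 h only replicate 4 was in the second library set, which held both 144 h controls. Stage and library set thus cannot be fully told apart in this step.

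The controls were also set against the time course at equal labelled stage. At 144 h, Hoxc11 was 0.0847 and 0 FPKM in the controls and 3.87 and 3.01 FPKM in the time course (log2 difference -4.69, adjusted p = 2.44e-15, limma). Hoxc10 was 15.9 and 21.4 FPKM in the controls against 69.9 and 69.7 FPKM (-1.91, adjusted p = 0.00852). These were the 2 members called, both lower in the controls, with 21.5% of all genes called. Hoxc4 and Hoxc6 were at 21.2 to 22.6 FPKM and 27.4 to 29 FPKM in the controls, against 19.9 to 20.3 FPKM and 28.8 to 30.2 FPKM in the time course. Of 13 genes that regulate axial timing, 8 were lower in these controls (Wnt3a, Wnt8a, Cdx1, Fgf8, Cdx2, Cdx4, Lin28a and T, the gene of brachyury), and the 144 h controls resembled an age of 157.0 h and 157.5 h. The part of these differences in the Hoxc result was not tested. At 96 h, Hoxc5 and Hoxc6 were higher in the controls than in the time course (1.34 and 1.62, with 32.3% of all genes called), a call that rested on the time-course replicate 2. Without the 2 libraries, 0 members were higher there, and Hoxc8 was lower (adjusted p = 0.0015), with 19.3% of all genes called. At 120 h, limma called 0 members, also at an unadjusted p under 0.05, and 30.1% of all genes. Without the 2 libraries Hoxc10 was lower in the controls by 1.59 on the log2 scale (adjusted p = 0.00144, limma), with 22.7% called.

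Most members did not pass the test in most mutants. Of 119 tests, 7 members in 17 comparisons, 4 were higher and 10 lower, and without the 2 libraries 13 were higher and 27 lower. Hoxc11 made up 3 of the 4 higher calls and Hoxc10 3 of the 10 lower ones. The share of all genes called differed widely between comparisons, from 0.193% to 40%, and is given with each. The counts pooled over comparisons are a description and by themselves no result about the members.

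**Figure D3:**
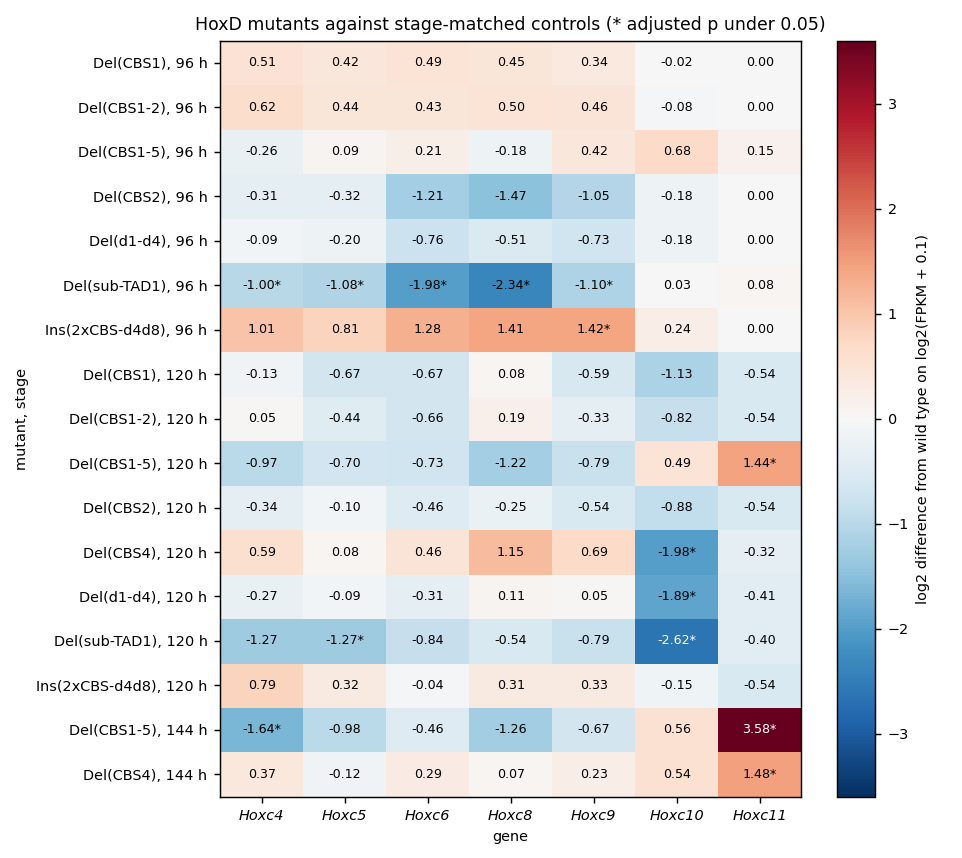
Difference on the log2(FPKM + 0.1) scale between each mutant and the wild-type controls of its stage (rows) for the 7 tested Hoxc genes (columns), as a number and as colour (red higher, blue lower); an asterisk marks an adjusted p under 0.05. Hoxc10 is lower in Del(sub-TAD1), Del(CBS4) and Del(d1-d4) at 120 h, and Hoxc11 is higher in Del(CBS1-5) at 120 h and 144 h and in Del(CBS4) at 144 h.

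Del(sub-TAD1) stembryos had the most Hoxc genes below the controls. At 96 h, Hoxc8 was 2.69, 1.71 and 2.11 FPKM against 9.21, 11.3, 15.3 and 9.87 FPKM in the controls (-2.34, SE 0.51, adjusted p = 0.000691). Hoxc6 was 1.07, 1.33 and 1.24 FPKM against 4.30, 4.62, 7.85 and 4.21 FPKM (-1.98, adjusted p = 0.00101). For both genes every mutant library lay under every control. Hoxc5, Hoxc9 and Hoxc4 were lower too (-1.08, -1.10 and -1, adjusted p = 0.00953, 0.0379 and 0.0405), which made 5 of 7 members, each of them lower, among 40% of all genes called. The same 5 members were called without the 2 time-course libraries, with 41.9% of all genes. The median over the 7 members was -1.08, that over all genes 0.06. The mutant libraries belonged to the second library set, as did only 1 of the 4 controls (replicate 4). Against the wild-type libraries of this set at 96 h, control replicate 4 and both time-course libraries, the differences were -1.31 for Hoxc8 (adjusted p = 0.124), -0.81 for Hoxc6, -0.30 for Hoxc9, -0.17 for Hoxc4 and 0.0039 for Hoxc5, and none passed. Hoxc8 was at 9.87 FPKM in control replicate 4 and at 25.2 FPKM in time-course replicate 1, both above the mutants, and at 0.571 FPKM in time-course replicate 2, under them. The mutants resembled ages of 91.0 h to 92.5 h and the controls ages of 91.5 h to 100.5 h. All 4 endoderm markers were higher in the mutants, summing to 265 to 484 FPKM against 50.1 to 147 FPKM, and 3 of 5 pluripotency genes. The part of age, library set and cell types in the Hoxc result was not tested.

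At 120 h, Hoxc10 and Hoxc5 were lower in Del(sub-TAD1). Hoxc10 was 1.08 and 1.49 FPKM against 8.04, 6.72, 12.8 and 6.91 FPKM, without overlap (-2.62, SE 0.46, adjusted p = 0.000319). Hoxc5 was 2.57 and 2.36 FPKM against 5.24 to 6.71 FPKM (-1.27, adjusted p = 0.0357). These were 2 of 7 members, both lower, while 6.15% of all genes were called. Hoxc8 was 14.7 and 13.4 FPKM against 16.1 to 26.5 FPKM, with a difference of -0.54 (95% interval -1.72 to 0.65). Without the 2 time-course libraries 5 members were lower (Hoxc4, Hoxc5, Hoxc6, Hoxc9 and Hoxc10), with 7.94% of all genes called. For Hoxc10 the difference of the effects at 120 h and 96 h was -2.65 (SE 0.62, adjusted p = 0.00442, 23.6% of all genes called). At 96 h Hoxc10 was at or under 3 fragments in all mutant and control libraries, so that no fall could have been seen there and this value restates the difference at 120 h. Both mutant libraries and controls 1 to 3 were in the first library set, and against those 3 controls Hoxc10 differed by -2.71 (adjusted p = 0.00176). Of the endoderm markers 3 of 4 were higher in the mutants, though their sum of 91.9 to 103 FPKM lay within the controls' 16.5 to 175 FPKM, and their part in the result was not tested. The paralogue Hoxa10 fell with it by 2.58 (adjusted p = 0.000928). Gdf11, a ligand known to promote posterior Hox genes, was at 19.7 to 20.2 FPKM against 19.4 to 26.6 FPKM.

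Hoxc10 was lower in other lines at 120 h as well. In Del(CBS4) it was 2.12 and 1.95 FPKM (-1.98, SE 0.46, adjusted p = 0.00142), the only member of 7 called, among 37.5% of all genes. In the same libraries Hoxc8 stood at 42.2 and 48.5 FPKM, above all controls (16.1 to 26.5 FPKM), with a difference of 1.15 (SE 0.58, adjusted p = 0.122). The share of Hoxc10 in the Hoxc signal was 1.39% to 1.67% in Del(CBS4) and 6.66% to 15.5% in the controls. Both mutant libraries belonged to the second library set, as did only replicate 4 of the controls. The time course at 120 h, also of this set, was at 1.81 and 25.2 FPKM of Hoxc10. The part of the library set was not tested. Without the 2 time-course libraries Hoxc8, Hoxc9 and Hoxc4 were higher by 1.15, 0.69 and 0.59 and Hoxc10 was lower, with 39.6% of all genes called. The Del(CBS4) libraries at 120 h resembled ages of 114.0 h and 127.5 h, no further from their label than time-course libraries lay from theirs. In them 5 neural tube markers were higher and 1 lower, and 4 presomitic mesoderm, 4 endoderm and 3 pluripotency genes were lower. Their part in the Hoxc result was not tested. After the time course at the estimated age was subtracted, the difference of Hoxc10 was -1.01 (adjusted p = 0.323).

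At 144 h in Del(CBS4), Hoxc10 was 28.6 and 25.2 FPKM against 15.9 and 21.4 FPKM in the controls, and did not pass the test. The time course of that stage was higher than both, at 69.9 and 69.7 FPKM. Hoxc11 was 0.324 and 0.238 FPKM against 0.0847 and 0 FPKM (1.48, SE 0.26, adjusted p = 0.000853), the only member called, with 2.05% of all genes, and with 3.53% without the 2 time-course libraries. The change of the effect from 120 h to 144 h was called for both genes, 2.52 for Hoxc10 (SE 0.71, adjusted p = 0.0228) and 1.80 for Hoxc11 (SE 0.34, adjusted p = 0.000699), among 8.27% of all genes. At 120 h Hoxc11 was at 0 and 0.0349 FPKM in the mutants and at most 0.0975 FPKM in the controls, a few fragments in either. The control at 144 h decides the Hoxc11 call, and the change of the Hoxc10 effect rests on the same controls. When the controls also held the time-course libraries of 144 h, where Hoxc11 was 3.01 to 3.87 FPKM, the difference of Hoxc11 was -0.87, the reverse direction. The mutants resembled ages of 136.0 h and 126.5 h, and 3 presomitic mesoderm genes and 4 timing genes (Wnt3a, Wnt8a, Cdx1 and Fgf8) were higher in them. Their part in the result was not tested.

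In Del(d1-d4) at 120 h, Hoxc10 was 2.28 and 2.06 FPKM, under all controls (-1.89, SE 0.46, adjusted p = 0.0229), the only member called, among 1.85% of all genes, and among 2.86% without the 2 time-course libraries. Hoxc8 (22.3 and 21.7 FPKM) and Hoxc9 (10.1 and 10.5 FPKM) were within or near the range of the controls. Of the timing genes, 5 were lower in these libraries (Wnt3a, Wnt8a, Cdx1, Lin28a and T), and 3 pluripotency genes were lower, and their part in the result was not tested. Against the 3 controls of the same library set the difference was -1.98, with an adjusted p of 0.101. At 96 h, limma called 0 members, also at an unadjusted p under 0.05, and 1.19% of all genes, and Hoxc8 was 7.80 and 7.82 FPKM.

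**Figure D4:**
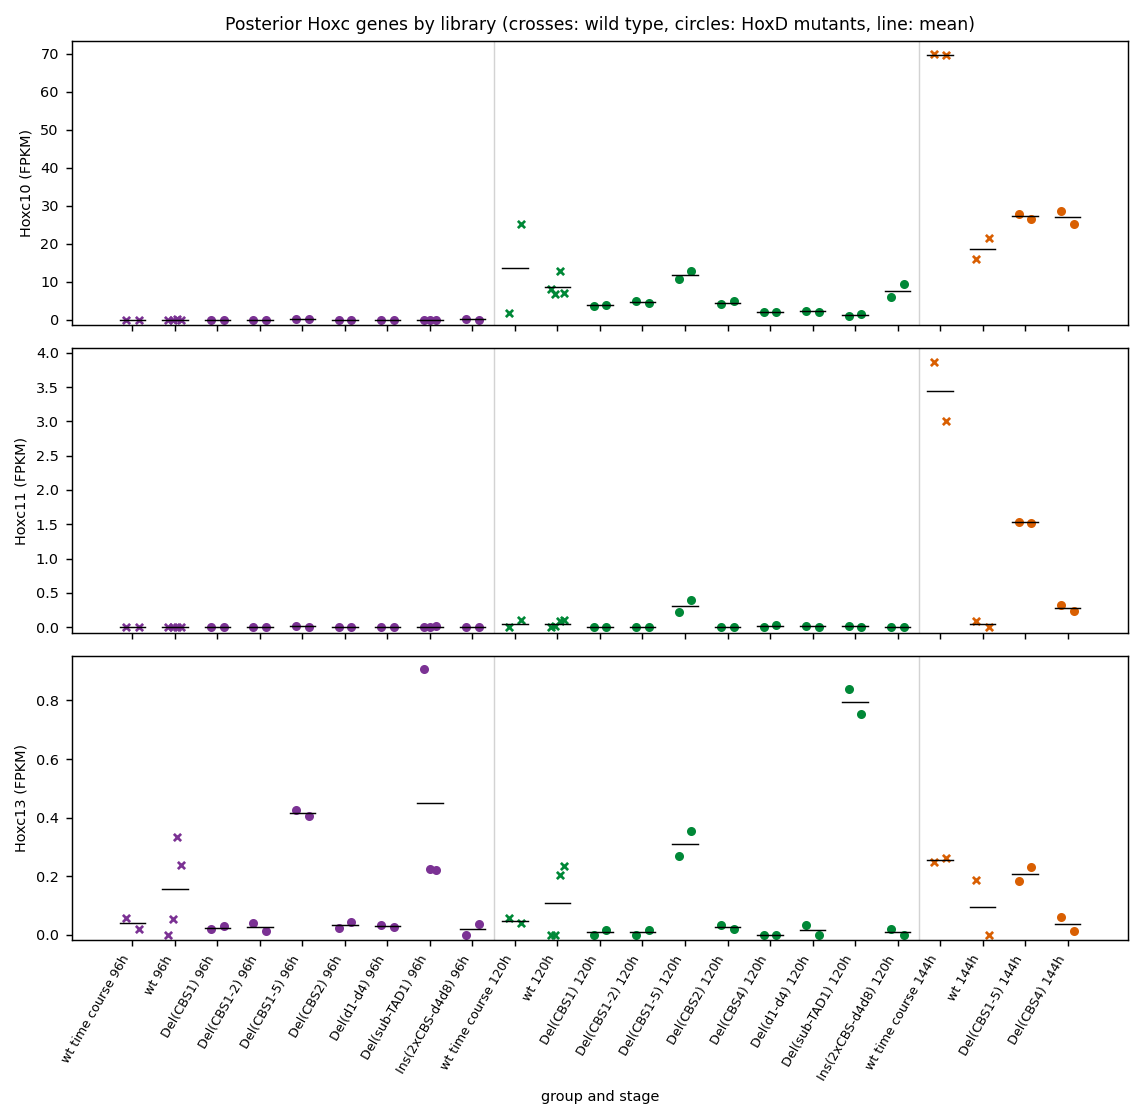
FPKM of Hoxc10, Hoxc11 and Hoxc13 (1 panel each, linear vertical axis in FPKM) per library for all groups at the 3 control stages; crosses are wild type, circles are mutants and lines are group means. At 120 h the Hoxc10 points of Del(sub-TAD1), Del(d1-d4) and Del(CBS4) lie at 1.08 to 2.28 FPKM, under the lowest control of 6.72 FPKM, and the Hoxc13 points of Del(sub-TAD1) lie at 0.754 and 0.839 FPKM.

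In Del(CBS1-5), Hoxc11 was the member that rose. At 120 h it was 0.215 and 0.395 FPKM, about 11 and 18.9 fragments, against 0, 0.0221, 0.0842 and 0.0975 FPKM (1.44, SE 0.22, adjusted p = 5.44e-05), the only member called, with 13.3% of all genes. At 144 h it was 1.54 and 1.52 FPKM against 0.0847 and 0 FPKM (3.58, SE 0.26, adjusted p = 6.71e-13). The effect grew between these stages by 2.14 (adjusted p = 7.28e-05, 7.07% of all genes called). Its difference between 144 h and 96 h was 3.43 (adjusted p = 6.18e-09, 10.3% called), but at 96 h Hoxc11 was at 0 in all 4 controls and at most at 1 fragment in the mutants, so that this value restates the difference at 144 h. Hoxc10 was 10.8 and 12.8 FPKM at 120 h and 27.9 and 26.6 FPKM at 144 h, above the controls at 144 h but not called. The time course at 144 h was higher than the mutants for both genes. It had 69.9 and 69.7 FPKM of Hoxc10 and 3.87 and 3.01 FPKM of Hoxc11. With the time-course libraries of 144 h added to the controls, the difference of Hoxc11 was 1.24 (adjusted p = 0.22). Its paralogues Hoxa11 and Hoxd11 rose with it, by 2.51 and 3.77 at 120 h and by 3.17 and 4.19 at 144 h, and Hoxd11 lies in the cluster from which the CTCF sites were deleted.

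Hoxc4, at the other end of the cluster, was lower in Del(CBS1-5) at 144 h. It was 7.49 and 6.49 FPKM against 22.6 and 21.2 FPKM (-1.64, SE 0.51, adjusted p = 0.017), so that 1 member was higher and 1 lower at this stage, with 23.7% of all genes called. Hoxc8 was 8.88 and 8.53 FPKM at 120 h against 16.1 to 26.5 FPKM (-1.22, adjusted p = 0.181) and 7.72 and 7.97 FPKM at 144 h against 18.6 and 19.4 FPKM (-1.26, adjusted p = 0.194). In every one of these the mutant libraries lay under the controls. Without the 2 time-course libraries, Hoxc4, Hoxc5, Hoxc6, Hoxc8 and Hoxc9 were lower at 120 h and Hoxc4, Hoxc5, Hoxc8 and Hoxc9 at 144 h, with 15.5% and 25.5% of all genes called. At 96 h, limma called 0 members, also at an unadjusted p under 0.05, and 14.8% of all genes. All 4 endothelial markers were higher at 120 h, summing to 10.3 to 12.7 FPKM against 1.48 to 3.43 FPKM, and 3 pluripotency genes. At 144 h 4 pluripotency genes were higher and 1 lower, and 4 neural tube genes were lower. The summed level at 144 h was 60 to 65.1 FPKM against 110 to 111 FPKM for the neuro-mesodermal list, 14.6 to 16.1 FPKM against 32.3 to 34.0 FPKM for presomitic mesoderm, 364 to 372 FPKM against 199 to 207 FPKM for somite and 196 to 204 FPKM against 84.9 to 91.5 FPKM for endoderm. The libraries resembled ages of 114.5 h and 125.5 h at 120 h, against 125.0 h to 126.5 h in the controls, and of 137.5 h and 138.5 h at 144 h, against 157.0 h and 157.5 h. Their part in the Hoxc result was not tested.

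In Ins(2xCBS-d4d8) at 96 h the anterior and middle members lay above the controls. Hoxc8 was 32.3 and 27.8 FPKM against 9.21 to 15.3 FPKM (1.41, SE 0.58, adjusted p = 0.0685), and Hoxc9 was 1.55 and 1.71 FPKM against 0.365 to 1.06 FPKM (1.42, SE 0.48, adjusted p = 0.0264). Hoxc9 was the only member of 7 called, with 27.9% of all genes. Without the 2 time-course libraries, Hoxc4, Hoxc5, Hoxc6, Hoxc8 and Hoxc9 were higher, with 29.6% of all genes. Of the 13 timing genes 6 were higher in these libraries (Wnt8a, Cdx2, Lin28a, T, Lin28b and Nr6a1), and 4 of 5 markers of neuro-mesodermal progenitors. Their part in the result was not tested. At 120 h, limma called 0 members, 1 at an unadjusted p under 0.05, among 26.9% of all genes, and Hoxc4 was 30.6 and 42.3 FPKM against 15.7 to 23.9 FPKM. Without the 2 libraries, Hoxc4 was higher and Hoxc11, at 0 in both mutant libraries, lower, with 28.7% called. The controls at 120 h had at most 0.0975 FPKM of Hoxc11, a few fragments, so that this call rests on values near the detection limit. At both stages the mutant libraries belonged to the second library set, as did only replicate 4 of the controls. The part of the library set in these results was not tested.

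In the lines with a single or a pair of CTCF sites removed near the 3′ side of HoxD, limma called 0 of 7 members at either stage. At an unadjusted p under 0.05 there were 0 and 2 members in Del(CBS1), 0 and 1 in Del(CBS1-2) and 3 and 1 in Del(CBS2), at 96 h and 120 h. In the same order, the share of all genes called was 1.23% and 2.1% in Del(CBS1), 4.49% and 2.35% in Del(CBS1-2) and 0.298% and 0.193% in Del(CBS2). The largest of these differences was that of Hoxc8 in Del(CBS2) at 96 h, 4.04 and 3.95 FPKM against 9.21 to 15.3 FPKM (-1.47, SE 0.58, adjusted p = 0.236). Both libraries lay under every control, and without the 2 time-course libraries Hoxc8, Hoxc6 and Hoxc9 were lower there, by 1.47, 1.21 and 1.05 on the log2 scale, with 1.87% of all genes called. Likewise Hoxc4 was then higher in Del(CBS1-2) at 96 h (15.4 and 15.7 FPKM, 6.46% called), and Hoxc10 and Hoxc5 were lower in Del(CBS1) at 120 h (3.04% called). At 120 h, Hoxc10 was 3.62 and 3.90 FPKM in Del(CBS1), 4.82 and 4.51 FPKM in Del(CBS1-2) and 4 and 5.01 FPKM in Del(CBS2), under the lowest control of 6.72 FPKM in each.

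The level of Hoxc10 at 120 h can thus be ordered over all conditions of that stage. The lowest were Del(sub-TAD1) (1.08 and 1.49 FPKM), Del(CBS4) (1.95 and 2.12 FPKM) and Del(d1-d4) (2.06 and 2.28 FPKM), and the values of the latter pair overlapped. Del(CBS1), Del(CBS2) and Del(CBS1-2) followed at 3.62 to 5.01 FPKM, with overlap between Del(CBS2) and Del(CBS1-2), then Ins(2xCBS-d4d8) at 5.93 and 9.40 FPKM, the controls at 6.72 to 12.8 FPKM and Del(CBS1-5) at 10.8 and 12.8 FPKM. The controls overlapped both Ins(2xCBS-d4d8) and Del(CBS1-5). The time course at 120 h, at 1.81 and 25.2 FPKM, spanned nearly the whole order.

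Hoxc13, the 5′-most gene, reached its highest values in 2 mutant lines and not in the time course. It was 0.907, 0.225 and 0.220 FPKM in Del(sub-TAD1) at 96 h, about 39.5, 17 and 14.7 fragments, and 0.839 and 0.754 FPKM at 120 h, about 49.3 and 37.6 fragments. The controls were at 0, 0.0532, 0.334 and 0.239 FPKM at 96 h and at 0, 0, 0.204 and 0.236 FPKM at 120 h. It was above 0 in all 6 Del(CBS1-5) libraries, at 0.426 and 0.405 FPKM at 96 h, 0.268 and 0.354 FPKM at 120 h and 0.184 and 0.233 FPKM at 144 h. The time course at 144 h was higher than the latter, at 0.248 and 0.260 FPKM. In the fit without a filter on low values, Hoxc13 was higher in Del(sub-TAD1) at 120 h (2.32, SE 0.48, adjusted p = 0.00365, 3.19% of all genes called). At 96 h it did not pass (1.11, adjusted p = 0.0591, 20.7% called). Both lines with the higher levels came from blastocysts of mutant mice, and the origin of the line and the allele cannot be told apart. Hoxc12, between Hoxc13 and Hoxc11, was listed at 0 in all 5 Del(sub-TAD1) libraries.

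The paralogues of the members on the other clusters give the surroundings. Of the 20 Hoxa, Hoxb and Hoxd paralogues, 17 were tested. In Del(sub-TAD1) at 96 h 1 was higher and 6 lower, where 40% of all genes were called. In Del(CBS1-5) at 120 h 4 were higher (Hoxd13, Hoxa11, Hoxd11 and Hoxd10) and 1 lower (Hoxd4), where 13.3% were called, and in Del(CBS4) at 120 h 0 were higher and 2 lower, where 37.5% were called. Of the 7 genes flanking the HoxC cluster, 1 was higher and 2 lower in Del(sub-TAD1) at 96 h, 0 higher and 1 lower in Del(CBS1-5) at 120 h, and 2 higher and 2 lower in Del(CBS4) at 120 h. The median of all genes lay within 0.1 of 0 on the log2 scale in every comparison.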

How the data were processed

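RNA was measured in 61 libraries of mouse stembryos, grouped by the genotype, stage and series in their titles. The authors made stranded poly-A libraries, sequenced 75-base paired ends, trimmed them (cutadapt 1.16), aligned them to mm10 (STAR 2.7.7a), kept uniquely mapped reads and ran Cufflinks 2.2.1 on an annotation from Ensembl. Values are FPKM, deposited as the authors' Cufflinks runs wrote them. The tables hold no counts, so no count model was run.

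The 9 members were matched by symbol, and all had a successful estimate in every library. Log2(FPKM + 0.1) of all libraries was fitted with limma 3.58.1 (R 4.3.3), 1 coefficient for each of 28 groups, over the 17098 genes with a mean of at least 1 FPKM in at least 1 group. P-values were two-sided, adjusted by Benjamini-Hochberg over all tested genes in each of 39 contrasts, at 0.05. The fit was tested on simulated data. The study describes its replicates as independent samples.

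Fragment numbers came from the FPKM confidence bounds, with whole numbers taken within 0.02. Of 96 member values under 20 fragments, 80.2% were whole. These limits cover counting error only. A library's age was that of the nearest point of the interpolated time course over 1000 genes outside the Hox clusters, in steps of 0.5 h, and time-course libraries lay between -8 h and 7.5 h from their label. Ages fell to either side of a label, and the library nearest its label still lay 2.5 h from it. Transcript sequences came from GENCODE vM21. Homeobox sequences of single members are not reported here. Replicate numbers did not pair most libraries (median correlation of same-numbered deviations 0.0108 in the time course). Outside it the median was -0.0025 for replicate 1 and -0.00063 for replicate 2. There 2 of 190 pairs passed 0.1 for each, with highest values of 0.561 and 0.572. For replicate 3, 1 of 3 pairs did, at 0.584.

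All 9 members were named in every comparison, and other genes came from fixed lists of paralogues, neighbours, timing genes and cell type markers, or were the most correlated genes. The members and lists were chosen with earlier results of these data known. Alternatives were the pseudocount, the filter, centring, scaling by Hoxa and Hoxb genes, other controls, the compared groups alone, a replicate block, leaving out replicates, subtraction of the estimated age and, chosen after seeing the data, leaving out 2 time-course libraries. The other assays of the study were not analysed here. Tables were handled in pandas 2.3.3 and SciPy 1.17.1 (Python 3.11.15).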

Additional observations from a re-analysis of the deposited data

Results flagged for a closer look

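Replicate 3 of the wild-type controls stood apart from its group in 4 cases, by the gap to the nearest library divided by the range of the 4 libraries, a ratio above Dixon's 95% critical value, which chance passes in about 1 of 20 groups. At 96 h the ratio was 0.885 for Hoxc6 (7.85 FPKM against 4.21 to 4.62 FPKM). It was 1 for Hoxc10 at 96 h (0.0627 FPKM), for Hoxc12 at 96 h (0.042 FPKM) and for Hoxc12 at 120 h (0.045 FPKM), where the other 3 libraries were listed at 0 and the value is that of a few fragments at most. With the others at 0 the ratio is 1 for any value above 0, so that these cases do not mark the library as unusual.

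The effect of an allele differed between stages for Hoxc10 and Hoxc11, by limma's test of the difference itself on the log2(FPKM + 0.1) scale. For Hoxc10 the effect of Del(sub-TAD1) was lower at 120 h than at 96 h, by -2.65 (adjusted p = 0.00442), but the gene was at or under 3 fragments in every library of both groups at 96 h, so that this restates the difference at 120 h. The effect of Del(CBS4) on Hoxc10 was higher at 144 h than at 120 h, by 2.52 (adjusted p = 0.0228). For Hoxc11 the effect of Del(CBS4) was higher at 144 h than at 120 h by 1.80 (adjusted p = 0.000699). The effect of Del(CBS1-5) on Hoxc11 was higher at 144 h by 2.14 than at 120 h (adjusted p = 7.28e-05) and by 3.43 than at 96 h (adjusted p = 6.18e-09), a stage at which the gene was at most at 1 fragment in both groups. The controls at 144 h, on which the 3 Hoxc11 values rest, had 0.0847 and 0 FPKM of Hoxc11, and the time course of that stage had 3.87 and 3.01 FPKM. The Hoxc10 value of Del(CBS4) rests on the same controls, with 15.9 and 21.4 FPKM of Hoxc10 against 69.9 and 69.7 FPKM in the time course.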

How the results depend on the processing

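Counts are of members called, against 15 higher between time-course stages, 4 higher and 10 lower in the mutants, 6 higher between control stages, 2 higher and 2 lower in controls against the time course, and 4 higher and 1 lower for changes of an effect between stages. The share of all genes called is not given beside these counts. A change in a count is therefore not read as particular to the members. With the compared groups alone, 6 were higher in the time course, 11 higher and 26 lower in the mutants, 1 higher in controls against the time course and 5 effects lower. Without the 2 time-course libraries that stand apart, an alternative chosen after the data were seen, 13 were higher and 27 lower in the mutants, 0 higher and 4 lower in controls against the time course, and 7 effects higher and 10 lower. With the time course added to the controls, 2 were higher and 6 lower in the mutants. With the estimated age subtracted, 12 were higher and 6 lower. Scaling by Hoxa and Hoxb genes left 6 lower, and controls of the same library set 4. Centring gave 4 higher in controls against the time course, and a pseudocount of 0.01 gave 1 lower there and 2 effects higher. The onset order kept a correlation of 0.879 to 0.973 under every alternative run.

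Leaving out 1 replicate number at a time gave 1 to 5 higher and 0 to 10 lower in the mutants, 3 (without control replicate 4) to 5 higher between control stages, 1 to 6 higher and 1 to 3 lower in controls against the time course, and 1 to 5 effects higher and 0 to 1 lower. The lowest mutant counts were those without mutant replicate 1 or 2, which leaves most mutants with 1 library, assumed to vary like the others. Hoxc5 from 96 h to 108 h ranged from -0.0685 without time-course replicate 2 to 2.73 without replicate 1, and Hoxc6 in controls against the time course at 96 h from -0.35 to 3.59. The replicate number as a block gave 1 higher in controls against the time course and 5 higher and 10 lower in the mutants. The numbers did not pair most libraries. Direction also turned for Hoxc11 in Del(CBS4) at 144 h (-0.87 with controls of the same set and with the time course added), Hoxc5 in Del(sub-TAD1) at 96 h (0.0039 with controls of the same set), Hoxc9 there (0.33 with age subtracted) and Hoxc6 in controls against the time course at 96 h (-0.35 without the 2 libraries). The cause was not tested. Values of Hoxc11, Hoxc12 and Hoxc13 at a few fragments carry a large counting error, the call of Hoxc11 in the controls from 96 h to 120 h included.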
